A study of Mus musculus with 2 samples.

Results

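The Golgi glycosyltransferases described here are the enzymes that build and cap the sugar chains of the cell surface, and 65 of their genes were measured in mouse corneal epithelium. Members were the genes named Galnt, B3gnt, B3galt, B4galt, Fut, St3gal, St6gal, St6galnac, St8sia, Gcnt or C1galt with a number, on rows of the array that carry 1 gene, out of 30698 genes named in this way. Each member had 1 row. A member was marked as low where the brighter of its 2 values lay below 5.44, the median over both arrays, and 48 members lay at or above this low-signal level while 17 lay below it. Just inside it was Fut2 with a brighter value of 5.49, and just outside it St8sia4 with 5.39. A further 5 genes of these families (St6galnac1, St6galnac4, St6galnac6, B3gnt2 and Fut11) lie only on rows that carry a second gene, so they are no members.

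The values come from 2 microarrays of total RNA, 1 of the injured and 1 of the uninjured corneal epithelium of C57BL/6 mice of both sexes aged 8 weeks. In the injured eye the epithelium had been removed in its full thickness up to the limbus under ketamine and xylazine anaesthesia, and the tissue was collected about 48 hours later with 10% of the wound still open. The control was the fellow eye of the wounded mice, so both arrays come from anaesthetised and wounded animals, and the labels do not say how many mice stand behind each array. With 1 array per group no difference has a replicate check and no test was run. "Higher" and "lower" are used below for genes that differed by at least 1 on the log2 scale (2-fold), injured minus uninjured, which describes these 2 arrays only.

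The surface of the corneal epithelium carries a glycocalyx of membrane mucins, whose protein backbones are covered with O-linked sugars. Such a chain is started by the Galnt enzymes, which attach N-acetylgalactosamine to serine or threonine. C1galt1 extends it to core 1, Gcnt enzymes branch it, the B3gnt, B4galt and B3galt enzymes lengthen it, and sialic acid (St3gal, St6gal, St6galnac, St8sia) or fucose (Fut) is placed at the ends. Several of these enzymes also act on N-linked chains and on glycolipids. Sugars of this kind are ligands of galectins, which hold the glycocalyx together, and of selectins.

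Of the markers of corneal epithelium, keratins were bright in both arrays, while several genes of its differentiated state were much lower in the injured array. Krt12, the keratin of this epithelium, had a log2 value of 14.07 in the uninjured and 10.85 in the injured array, and Krt5, a keratin of stratified epithelia, had 13.85 uninjured and 13.69 injured. The genes of the Ly6-type proteins Slurp1 (13.22 uninjured, 6.61 injured) and Lypd2 (13.48 uninjured, 5.99 injured) were much lower after injury. Both injured values were still above the low-signal level. Among 13 markers with a value, 7 were lower and 1 was higher in the injured array, and their summed linear signal was 83032 uninjured and 35945 injured. The higher marker was another keratin, Krt14, with 11.16 uninjured and 13.38 injured (2.23, 4.68-fold higher), opposite in direction to Krt12. The part of this marker change in the differences of the members was not tested. The array medians were 5.44 injured and 5.43 uninjured. Rows that name the same gene differed among themselves with an SD of 0.242 in their log2 difference (542 rows of 256 genes), which is a spread within these arrays and not between animals.

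Of the 48 members at or above the low-signal level, 5 were higher, 6 were lower and 37 were less than 2-fold apart. The 11 members past 2-fold are 22.9% of the 48, while 8.06% of all 19512 genes at or above that level passed 2-fold (4.14% higher, 3.92% lower). Among genes whose brighter value reached the 75th percentile of the table, 9 of 29 members (31.0%) and 11.9% of all genes passed. At 1.5-fold or more 8 members were higher and 9 lower, against 11.1% of all genes higher and 8.76% lower (19.9% in either direction). The median difference of the 48 members was 0.11, against 0.06 for all genes, so the members did not shift together in 1 direction. The median size of the difference, without its sign, was 0.40 for the members and 0.22 for all genes. The higher genes act in core 1 synthesis (C1galt1), I-branching (Gcnt2), terminal α2,3-sialylation (St3gal4, St3gal6) and fucosylation (Fut9). The lower genes are 2 genes of the Galnt family (Galnt4, Galnt18) and 4 sialyltransferases (St3gal5, St6gal1, St6galnac2, St8sia6).

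**Figure D1:**
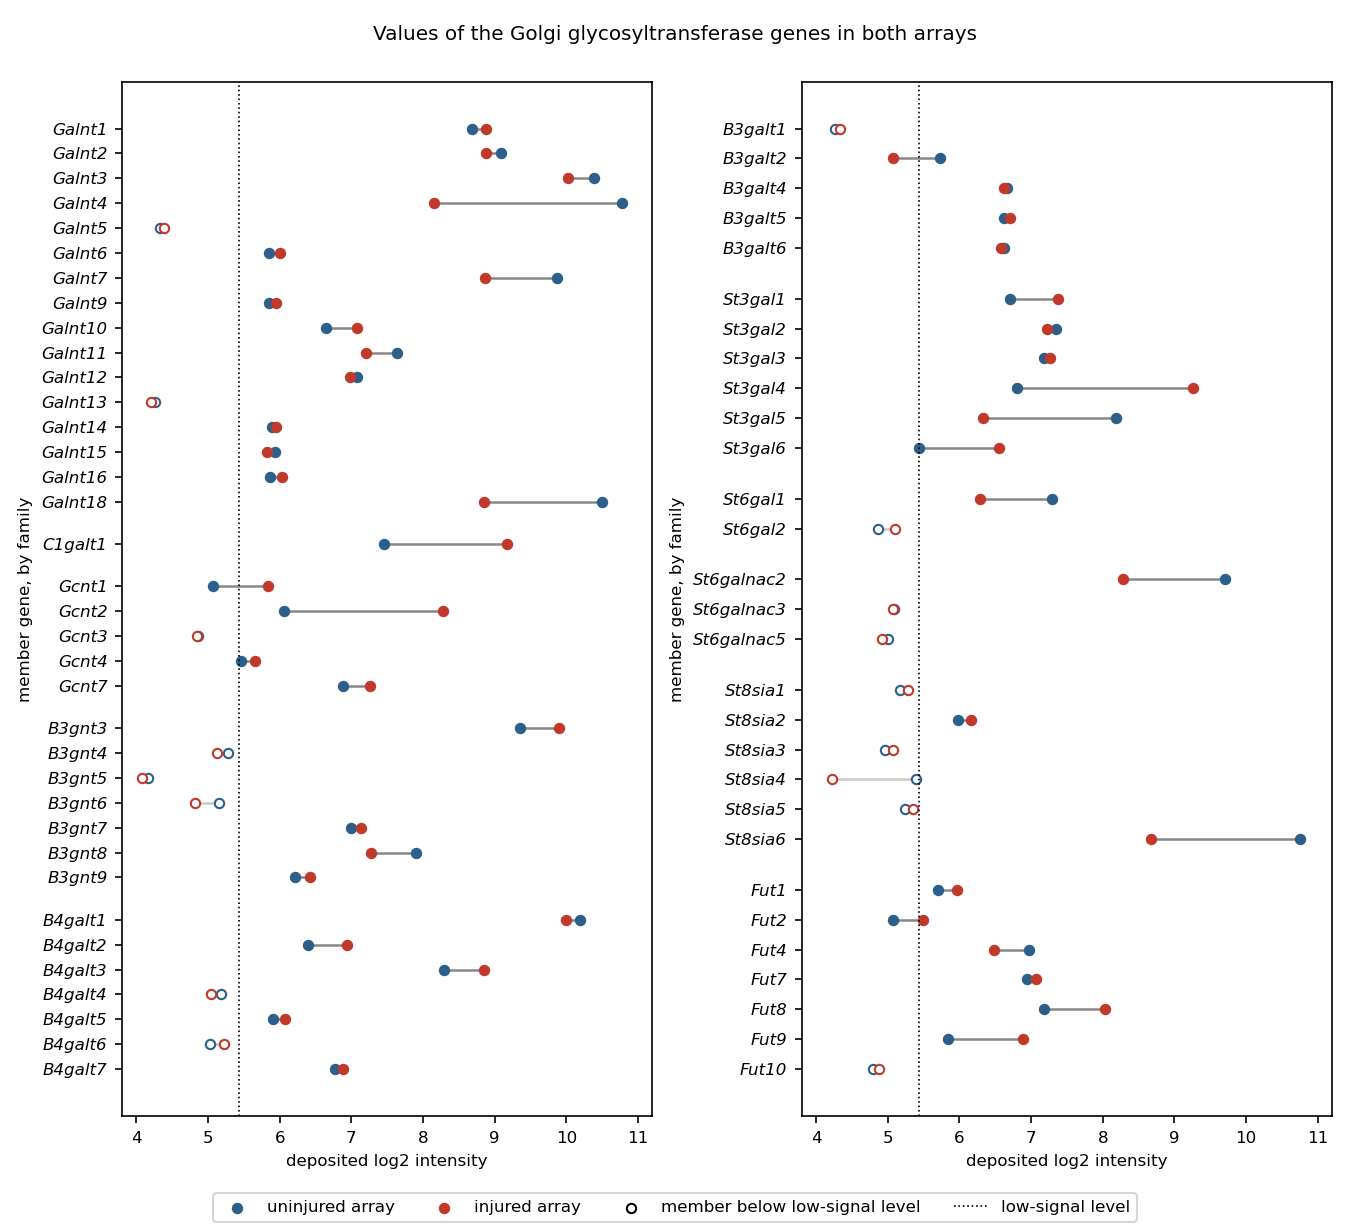
Deposited log2 intensity (horizontal axis) of each of the 65 member genes in the uninjured array (blue) and the injured array (red), joined by a line and grouped by family. Open points mark the 17 members below the low-signal level (dotted line, 5.44), and the longest lines belong to Galnt4, St3gal4, Gcnt2 and St8sia6.

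**Figure D2:**
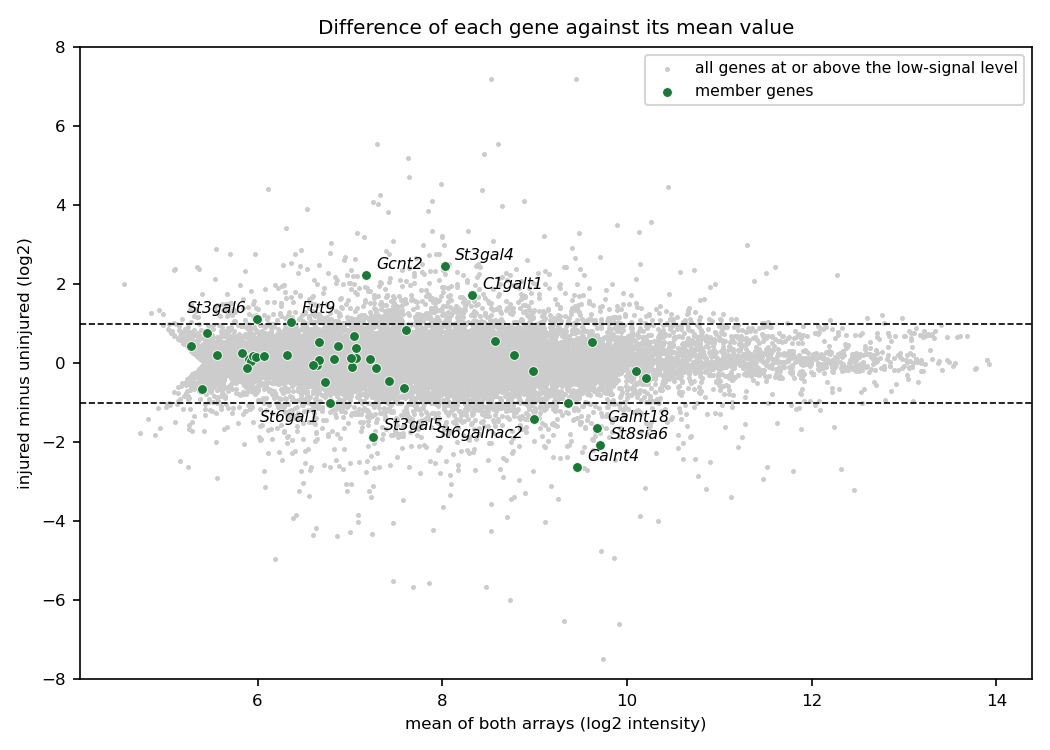
Injured minus uninjured log2 difference (vertical axis) against the mean log2 intensity of both arrays (horizontal axis) for the 19512 genes at or above the low-signal level (grey) and the 48 members among them (green). The dashed lines mark 2-fold, and the 11 named members lie on or outside them, 5 above and 6 below.

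The initiating Galnt family held 16 members, 14 of them at or above the low-signal level, with 2 lower and 0 higher. This share of 14.3% stands beside 8.06% of all genes, and a count of 2 is no result about the family. Galnt4, which can act on peptides that already carry a sugar, had 10.78 in the uninjured and 8.15 in the injured array, a difference of -2.63 (6.20-fold lower). This was the most negative difference among the 48 members. Galnt4 lies within the Poc1b locus in the RefSeq annotation. The row of Poc1b, a centriole gene, differed by -0.57 (8.92 uninjured, 8.36 injured), less than the row of Galnt4, and how far the 2 rows share signal was not tested. Galnt18 had 10.49 uninjured and 8.85 injured (-1.64, 3.12-fold lower). Galnt7, which adds N-acetylgalactosamine to peptides that already carry one, had 9.87 uninjured and 8.87 injured, a difference of -0.9995 that fell just short of 2-fold. St6gal1, described further on, was the member just past the threshold on that side.

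The other 11 Galnt members at or above the level were within 1.5-fold, with differences between -0.44 and 0.43. Galnt1 (8.68 uninjured, 8.88 injured) and Galnt2 (9.09 uninjured, 8.88 injured), both broadly expressed initiating enzymes, moved in opposite directions by 0.20 and -0.20. Galnt3, which also protects the hormone Fgf23 from cleavage, had 10.39 uninjured and 10.03 injured (-0.37). Galnt11, which modifies Notch1 and lipoprotein receptors, had 7.64 uninjured and 7.20 injured (-0.44), and Galnt10 had 6.65 uninjured and 7.08 injured (0.43). Galnt6, Galnt9, Galnt12, Galnt14, Galnt15 and Galnt16 differed by between -0.11 and 0.17. Within the family, the 3 negative differences of Galnt4, Galnt18 and Galnt7 were thus larger in size than the 11 others. The family median was -0.11. Galnt5 and Galnt13 lay below the low-signal level in both arrays.

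Of the core 1 and branching enzymes, C1galt1 and Gcnt2 were higher and the other 3 at or above the low-signal level were less than 2-fold apart. C1galt1, which adds galactose to the first sugar and makes core 1, had 7.46 in the uninjured and 9.18 in the injured array (1.72, 3.29-fold higher). Its chaperone C1galt1c1 (Cosmc), without which the enzyme is not active, was no member and had 7.32 uninjured and 7.45 injured (0.13). The enzyme and its chaperone thus differed from each other in these arrays, 1 being past 2-fold and the other close to 0.

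Of the 5 Gcnt members, 4 were at or above the low-signal level, and their differences were positive, with a median of 0.57. Gcnt2, which makes the I branches of polylactosamine chains, had 6.06 uninjured and 8.28 injured (2.22, 4.66-fold higher). Gcnt1, the main core 2 branching enzyme of leukocytes and many epithelia, had 5.07 uninjured and 5.84 injured (0.77), so its uninjured value lay below the low-signal level and the size of its difference is uncertain. Gcnt7 had 6.88 uninjured and 7.25 injured (0.37). Gcnt4, another core 2 enzyme, had 5.46 uninjured and 5.65 injured (0.19), values close to the low-signal level. Gcnt3, a core 2 and core 4 enzyme of mucin-secreting tissues, lay below it with 4.86 uninjured and 4.84 injured.

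Chain-lengthening enzymes were less than 2-fold apart throughout. Of 19 B3gnt, B4galt and B3galt members, 13 were at or above the low-signal level, 0 were higher and 0 lower, and their differences ran from -0.66 to 0.55 with a median of 0.10. B3gnt3, which extends core 1, had 9.35 uninjured and 9.89 injured (0.54). B3gnt8, which lengthens polylactosamine on N-linked chains, had 7.90 uninjured and 7.27 injured (-0.63, 1.54-fold lower). B3gnt7, an enzyme of keratan sulfate chains, and B3gnt9 differed by 0.13 and 0.21. B3gnt4, B3gnt5 and the core 3 enzyme B3gnt6 lay below the level, with brighter values between 4.16 and 5.28.

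Among the galactosyltransferases that make lactosamine units, B4galt1 had 10.20 uninjured and 9.99 injured (-0.20), B4galt2 had 6.40 uninjured and 6.94 injured (0.54), and B4galt3 had 8.29 uninjured and 8.84 injured (0.55). The lactosylceramide enzyme B4galt5 and the proteoglycan linker enzyme B4galt7 differed by 0.16 and 0.10. B3galt2 had 5.73 uninjured and 5.07 injured (-0.66, 1.58-fold lower), with the injured value below the low-signal level. The ganglioside enzyme B3galt4, the type 1 chain enzyme B3galt5 (6.62 uninjured, 6.71 injured) and the linker enzyme B3galt6 differed by between -0.05 and 0.09. B4galt4, B4galt6 and B3galt1 lay below the low-signal level. At the 8.06% of all genes past 2-fold, a count of 0 in 13 is near the background and is no result about these steps.

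**Figure D3:**
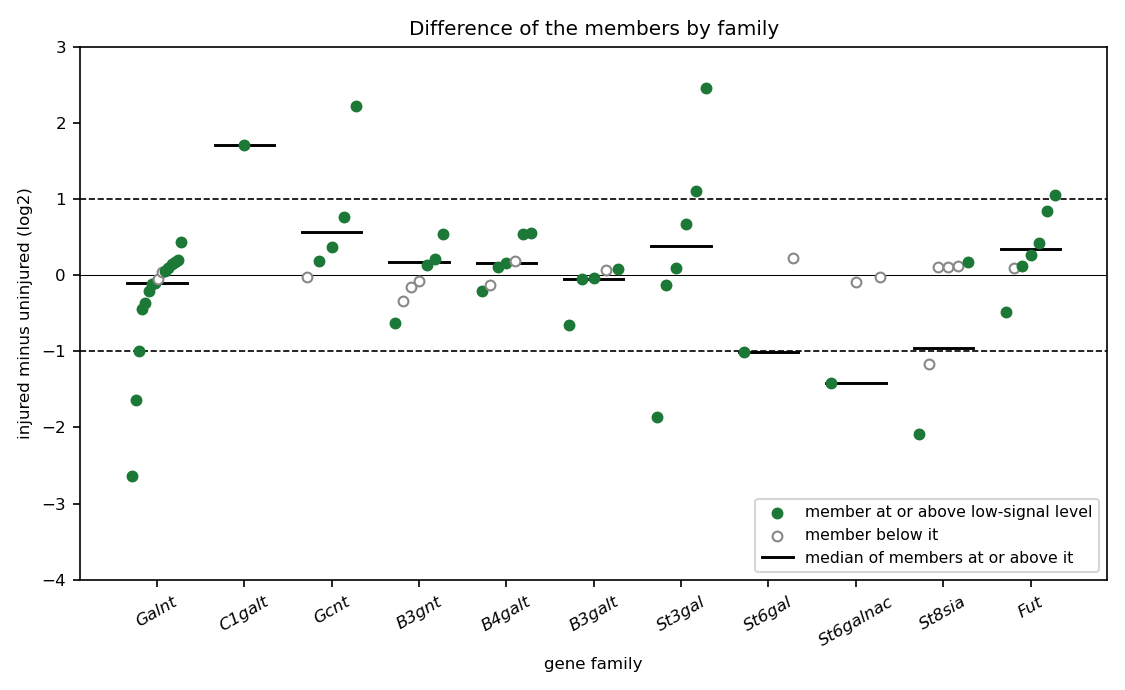
Injured minus uninjured log2 difference (vertical axis) of the members by gene family (horizontal axis), ordered by size within a family. Filled points are members at or above the low-signal level, open points lie below it, horizontal bars are medians of the filled points and dashed lines mark 2-fold. B3gnt, B4galt and B3galt stay between the dashed lines, and St3gal reaches past both.

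The sialyltransferases held most of the members past 2-fold. Of 17 members 10 were at or above the low-signal level, and 2 of these were higher and 4 lower, with a median difference of -0.02. That is 60% of the 10, beside 8.06% of all genes. The 6 St3gal members, which attach sialic acid in α2,3 linkage to galactose, were all at or above that level and held both directions. St3gal4, which acts on lactosamine ends, had 6.80 uninjured and 9.26 injured (2.46, 5.49-fold higher), the most positive difference among the 48 members. St3gal6, with the same kind of acceptor, had 5.44 uninjured and 6.55 injured (1.11, 2.16-fold higher). Its uninjured value stood at the low-signal level, so the size of the difference is uncertain. The St3gal6 locus overlaps Dcbld2, a receptor gene, whose row had 6.00 uninjured and 7.49 injured (1.495). How far those 2 rows share signal was not tested.

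St3gal1, which caps core 1, had 6.71 uninjured and 7.38 injured (0.67, 1.59-fold higher), whereas St3gal2, which acts on core 1 and gangliosides, had 7.35 uninjured and 7.22 injured (-0.13). St3gal3 had 7.17 uninjured and 7.27 injured (0.09). St3gal5, the GM3 synthase that starts the ganglioside series of glycolipids, had 8.18 uninjured and 6.32 injured (-1.86, 3.63-fold lower). Within this family St3gal5 was therefore lower, St3gal4 and St3gal6 were higher, and St3gal1, St3gal2 and St3gal3 were less than 2-fold apart.

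The α2,6 and α2,8 sialyltransferases at or above the low-signal level were 4 of 11 members, of which 3 were lower and 0 higher. That is 75% of the 4, beside 8.06% of all genes past 2-fold (3.92% lower). With so few genes, a count of 3 is no result about these linkages. St6gal1, which attaches α2,6 sialic acid to lactosamine on N-linked chains, had 7.29 uninjured and 6.28 injured (-1.01, 2.01-fold lower). St6galnac2, which places sialic acid on the first N-acetylgalactosamine of O-linked chains, had 9.70 uninjured and 8.29 injured (-1.42, 2.67-fold lower). It neighbours St6galnac1 on chromosome 11, whose row it does not share. The row that carries both St6galnac1 and Gm11735 had 11.89 uninjured and 8.22 injured (-3.67), and which of these 2 genes gave the value cannot be told. St8sia6, which makes disialic acid on O-linked chains, had 10.75 uninjured and 8.67 injured (-2.08, 4.24-fold lower). St8sia2, a polysialic acid enzyme, was less than 2-fold apart, with 5.98 uninjured and 6.16 injured (0.18).

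The remaining α2,6 and α2,8 enzymes, St6gal2, St6galnac3, St6galnac5, St8sia1, St8sia3, St8sia4 and St8sia5, lay below the low-signal level in both arrays. St8sia4, the other polysialic acid enzyme, had 5.39 uninjured and 4.22 injured (-1.17), and was the 1 member of 17 below the level whose values were more than 2-fold apart. It is not counted as lower, since both values lie where signal is low. The other 16 differed by between -0.34 and 0.23.

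Of 7 Fut members 6 were at or above the low-signal level, with 1 higher, 0 lower and a median difference of 0.34. At 8.06% of all genes past 2-fold, a count of 1 in 6 is no result about the family. Fut9, which makes the Lewis x structure, had 5.84 uninjured and 6.89 injured (1.05, 2.07-fold higher). Fut4, which adds fucose in the same α1,3 linkage, went the other way with 6.97 uninjured and 6.49 injured (-0.48), and Fut7, the enzyme of sialyl Lewis x on leukocytes, had 6.95 uninjured and 7.07 injured (0.12). Fut8, which adds the core fucose of N-linked chains, had 7.19 uninjured and 8.03 injured (0.85, 1.80-fold higher). Of the α1,2 fucosyltransferases, Fut1 had 5.70 uninjured and 5.96 injured (0.26) and Fut2 5.07 uninjured and 5.49 injured (0.42). Fut10 lay below the level.

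The sequences upstream of the members furthest apart are printed so that the loci can be compared, and because Gcnt2 shows that 1 array row can stand for several starts. They are the 250 bases before the annotated start, 5′ to 3′ on the gene's strand, from RefSeq on GRCm38.p6. Of the 65 members 47 had an entry, and of the 11 past 2-fold 7 did (Galnt4, Galnt18, St6galnac2 and Fut9 had none). Among those 7, the windows of St3gal6 and St6gal1 are not printed, and their matches are given below. Capitals mark matches, on either strand, to 7 short motifs. These were TGANTCA for AP-1, which is bound by Fos and Jun proteins, GGGCGG for the GC box, which is bound by Sp and Krüppel-like factors, and CACGTG for the E-box, which is bound by Myc and clock factors. The others were TTCCNGGAA for STAT factors, TATAAA for the TATA box, GGAATG for TEAD factors of the Hippo pathway, and the CCAAT box by its own letters. Overlapping matches run together. The windows of the higher members lie at chr6:7844974-7845223 (plus strand) for C1galt1, chr9:35116865-35117114 (minus strand) for St3gal4, and chr13:40859518-40859767, chr13:40886508-40886757 and chr13:40917384-40917633 (plus strand) for the 3 starts of Gcnt2.
C1galt1: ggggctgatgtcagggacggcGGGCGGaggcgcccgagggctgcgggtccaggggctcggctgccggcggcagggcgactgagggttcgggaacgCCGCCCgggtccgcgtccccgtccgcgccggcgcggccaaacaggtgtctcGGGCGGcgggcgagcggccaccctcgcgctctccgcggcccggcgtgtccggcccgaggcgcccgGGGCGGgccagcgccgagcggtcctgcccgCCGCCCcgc
St3gal4: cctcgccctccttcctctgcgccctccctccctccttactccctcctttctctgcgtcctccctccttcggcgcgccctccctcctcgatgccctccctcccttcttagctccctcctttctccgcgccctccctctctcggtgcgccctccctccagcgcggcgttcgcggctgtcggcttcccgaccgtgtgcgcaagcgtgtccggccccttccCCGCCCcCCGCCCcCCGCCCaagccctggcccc
Gcnt2 first start: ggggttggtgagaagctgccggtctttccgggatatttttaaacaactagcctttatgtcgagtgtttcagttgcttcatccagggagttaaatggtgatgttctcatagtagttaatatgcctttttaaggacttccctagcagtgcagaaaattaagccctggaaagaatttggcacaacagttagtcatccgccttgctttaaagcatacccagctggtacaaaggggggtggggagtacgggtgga
Gcnt2 middle start: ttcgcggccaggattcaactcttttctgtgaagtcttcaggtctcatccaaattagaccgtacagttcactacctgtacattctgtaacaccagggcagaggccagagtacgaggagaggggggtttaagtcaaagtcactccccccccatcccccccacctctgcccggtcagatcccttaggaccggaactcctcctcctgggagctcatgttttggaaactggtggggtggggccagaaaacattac
Gcnt2 last start: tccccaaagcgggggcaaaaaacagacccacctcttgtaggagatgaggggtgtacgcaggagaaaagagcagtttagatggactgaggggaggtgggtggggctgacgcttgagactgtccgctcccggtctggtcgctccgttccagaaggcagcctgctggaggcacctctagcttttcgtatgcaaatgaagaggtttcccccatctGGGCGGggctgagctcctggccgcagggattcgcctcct
The windows of the lower members lie at chr6:72097358-72097607 (plus strand) for St3gal5 and chr2:13793521-13793770 (minus strand) for St8sia6.
St3gal5: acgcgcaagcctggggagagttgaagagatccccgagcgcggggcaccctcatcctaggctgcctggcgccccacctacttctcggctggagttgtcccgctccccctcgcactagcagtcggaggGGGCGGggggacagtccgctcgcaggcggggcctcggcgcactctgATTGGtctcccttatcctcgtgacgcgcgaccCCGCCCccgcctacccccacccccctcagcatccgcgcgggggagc
St8sia6: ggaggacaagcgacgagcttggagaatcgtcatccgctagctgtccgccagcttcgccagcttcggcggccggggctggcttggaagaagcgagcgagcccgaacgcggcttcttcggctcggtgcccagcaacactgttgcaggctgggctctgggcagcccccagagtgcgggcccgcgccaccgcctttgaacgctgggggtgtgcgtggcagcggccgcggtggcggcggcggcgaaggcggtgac

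C1galt1 held 5 GC box matches, St3gal4 held 3 and the last start of Gcnt2 held 1, while the first and middle starts of Gcnt2 and the window of St8sia6 held no match to any of the 7 motifs. St3gal5 held 2 GC box matches and 1 CCAAT box match. Of the windows not printed, 1 of St3gal6 held 4 GC box matches and its other held 1 CCAAT box and 1 TEAD match. All 3 windows of St6gal1 held CCAAT box letters, and the last also held 1 AP-1 match. The GC box was present in 50.7% of the 67 windows of all members and in 32.7% of the 32851 windows in the table, and the CCAAT box in 25.4% and 33.8%. AP-1 letters were in 5.97% of member windows and 6.75% of all windows. TATA box letters were in 1.49% of member windows and 12.4% of all windows. These matches describe letters in a window, and the array row of Gcnt2 does not tell its 3 starts apart.

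The lists of other genes of the pathway are given by their counts, to be read against the 8.06% of all genes past 2-fold and their median of 0.06. The shares of both lists that supply the enzymes lie near that background. In the list of sugar nucleotide synthesis 21 of 25 genes were measured, 1 was lower and 0 higher (median -0.10). The lower gene was Galm, which converts forms of galactose, with 7.67 uninjured and 5.95 injured (-1.72). Gfpt1, which commits glucose to amino sugars, had 10.12 uninjured and 9.65 injured (-0.48). The sialic acid genes Gne (9.55 uninjured, 8.65 injured) and Cmas (9.46 uninjured, 8.54 injured), which start sialic acid synthesis and activate it, differed by -0.89 and -0.92, while Nans and Nanp between them differed by 0.21 and -0.17. Of 11 sugar nucleotide transporters 1 was lower (median 0.15). This was Slc35a1, which carries activated sialic acid into the Golgi, with 8.92 uninjured and 7.38 injured (-1.54), while the fucose carrier Slc35c1 and the galactose carrier Slc35a2 differed by 0.46 and 0.00. Slc35a4 had 9.104 uninjured and 9.52 injured (0.41).

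In the list of other Golgi glycosyltransferases with Cosmc, 22 of 29 genes were measured, 2 were higher and 1 lower (median 0.08). B4galnt1, which acts on GM3 and related glycolipids, had 8.43 uninjured and 9.75 injured (1.32), in the opposite direction to the GM3 synthase St3gal5. B3glct had 5.96 uninjured and 7.16 injured (1.19), and B3gntl1 had 8.50 uninjured and 6.89 injured (-1.61). The N-linked branching enzymes Mgat1, Mgat2, Mgat3, Mgat4a and Mgat5 differed by between -0.63 and 0.77.

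Of 13 measured sulfotransferases and sialic acid modifiers 1 was lower and 0 higher (median -0.13), a share near the background. Chst9, which sulfates terminal N-acetylgalactosamine, had 8.83 uninjured and 5.58 injured (-3.25), with the injured value close to the low-signal level. Cmah, which makes the form of sialic acid that mice have and humans lack, had 10.70 uninjured and 10.01 injured (-0.69). Of 13 measured glycan-degrading enzymes 0 passed 2-fold (median -0.23), and the sialidases Neu1 and Neu3 differed by 0.10 and -0.56. Ctsa, which stabilises lysosomal sialidase, had 9.11 uninjured and 9.09 injured.

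Among mucin-type acceptor proteins 6 of 15 measured genes were lower and 0 higher (median -0.12), with the membrane mucin Muc4 at 13.05 uninjured and 11.43 injured (-1.62), Muc20 at -1.42, the secreted goblet cell mucin Muc5ac at -1.26 and Muc15 at -1.20. Muc21 (Gm9573 in RefSeq) and Muc13 were also lower, at -1.15 and -1.13. Muc13 had 6.24 uninjured and 5.11 injured. Its injured value lay below the low-signal level, so the size of its difference is uncertain. Muc1 had 10.60 uninjured and 10.95 injured (0.36). Of 8 measured genes in the list of galectins 3 were higher and 0 lower (median 0.14). Lgals1 had 6.52 uninjured and 9.51 injured (2.99), and Lgals7, a galectin of stratified epithelia, had 8.32 uninjured and 10.23 injured (1.91). The galectin-like gene Lgalsl had 9.53 uninjured and 10.57 injured (1.04). Lgals3, which binds mucins at the corneal surface, had 9.18 uninjured and 8.89 injured (-0.29).

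Of 24 measured genes for Golgi structure and tethering 3 were lower and 0 higher (median -0.26). They were Golga4 with 9.63 uninjured and 8.06 injured (-1.57), Cux1 (-1.22), and Golph3, which helps to retain glycosyltransferases in the Golgi, with 10.08 uninjured and 9.08 injured (-1.01).

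**Figure D4:**
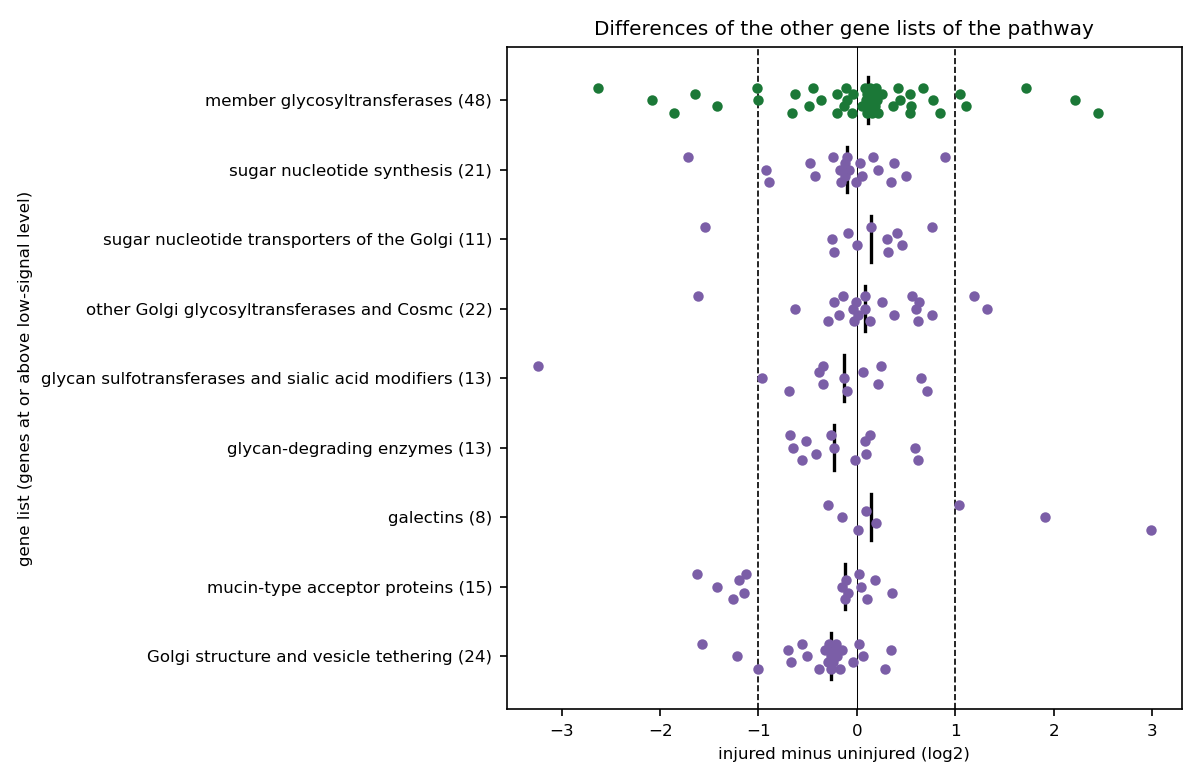
Injured minus uninjured log2 difference (horizontal axis) of each measured gene in the members (green) and in 8 other lists of the pathway (purple), with the number of genes in brackets. Vertical bars are list medians and dashed lines mark 2-fold. The members spread furthest on both sides except for Chst9 at -3.25 and Lgals1 at 2.99.

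Some members are also expressed by other cells, and in bulk RNA fewer cells of a type and less RNA per cell cannot be told apart. Among leukocyte markers, cells in which Fut7, Gcnt1 and St3gal6 make selectin ligands, 14 of 20 were measured and 1 was higher and 1 lower: S100a9 had 5.77 uninjured and 7.67 injured (1.89), and Itgam 10.26 uninjured and 8.72 injured (-1.55). The pan-leukocyte gene Ptprc had 4.29 uninjured and 4.39 injured, below the low-signal level, and Lyz2 had 5.46 uninjured and 6.33 injured (0.87). S100a8 had 3.77 uninjured and 5.32 injured (1.55), both below that level. Summed over the 18 markers with a value the linear signal was 2443 uninjured and 1982 injured, and without Itgam, which decides that direction, it was 1215 uninjured and 1562 injured over 17 markers. Conjunctival and goblet cell markers summed to 10952 uninjured and 13031 injured over 12 genes. Of 11 measured, 2 were higher (Krt19, Krt7) and 2 lower (Fcgbp, Muc5ac). Krt19 (10.58 uninjured, 11.68 injured) and Krt7 (9.22 uninjured, 10.56 injured) together decide the direction of this sum. Of 12 keratocyte and stromal markers 8 were measured, with 0 higher and 2 lower (Dcn, and Aldh3a1, which is also a corneal epithelium marker here). Dcn had 6.09 uninjured and 4.77 injured (-1.31), Col1a1 had 7.29 uninjured and 7.18 injured, and Vim had 6.97 uninjured and 7.42 injured. Kera, Lum and Ogn lay below the low-signal level in both arrays. The part of these cells in the differences of the members was not tested.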

How the data were processed

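RNA from injured and from uninjured corneal epithelium was measured on 1 microarray each. The authors' deposited values are log2 intensities of 65952 rows; Agilent Feature Extraction 9.1 is named per the submitters' processing notes, whereas the row identifiers are transcript clusters and the label is biotin. Neither labels nor table state the background correction, probe summary, normalization or genome build. Medians differed by 0.0135, less than 0.1, so values were used as deposited. No detection or saturation call was used.

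Rows were named from the platform annotation, with symbols updated through RefSeq on GRCm38.p6: 31254 rows carried 1 gene, 1492 several (left unnamed) and 33206 are unnamed here. Where a gene had several rows, the row with the highest mean stood for it. With 1 array per group no test was run, and genes past 2-fold were counted. The counting steps were run on simulated data with 200 genes moved well past 2-fold. That does not check the calls of genes near the threshold. The text names all members past 1.5-fold at or above the low-signal level, the brightest member of each family, up to 4 genes past 2-fold and the brightest gene of each other list; further genes (Muc21, Muc13, Muc1, Lgals3, Gne, Cmas and others without a 2-fold difference) were chosen after their values were seen. Members, lists and thresholds were chosen with earlier results of these data known, and the promoter motifs after the values were seen. Alternatives were other scalings, filters, row choices, thresholds and a constant of 13.9 (the 10th percentile of the linear values) added before log2. Python 3.11.15, pandas 2.3.3 and statsmodels 0.14.6 were used.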

Additional observations from a re-analysis of the deposited data

How the results depend on the processing

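With 1 array per group, no error between animals stands behind any value, and the number of arrays and the signal over background limit the precision. No paired analysis was possible because each group has 1 sample. Of 34 recomputed counts and medians, 29 stayed within 1.5 times the main count or within the spread between rows of a gene, and 5 did not. The count of 5 higher members became 3 with a brighter value at or above the 75th percentile (Gcnt2, St3gal4 and C1galt1 remained), 3 with the added constant, 8 at 1.5-fold and 2 at 4-fold, and the count of 6 lower members became 2 at 4-fold. With the added constant St3gal6 (0.91), Fut9 (0.90) and St6gal1 (-0.90) fell short of 2-fold. The 4 other scalings each counted 7 lower members, since Galnt7 passed 2-fold (as far as -1.02). With the 75th percentile filter the median of the members was -0.10 instead of 0.11, so its sign rests on that choice. None of the 17 members past 1.5-fold changed sign in the 7 settings tried for each.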

Other observations

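Besides the row of St6galnac1 and Gm11735 (-3.67), 3 rows carry a gene of these families together with another gene, and they differed by between -0.12 and 0.21 (injured minus uninjured, log2). Which of their genes gave these values cannot be told from the table. The row of Galnt6os, a transcript from the strand opposite to Galnt6, had 6.47 uninjured and 6.80 injured (0.33), and Galnt6 itself 5.85 uninjured and 6.00 injured (0.15). The row of the pseudogene Fut4-ps1 differed by 0.10, whereas Fut4 differed by -0.48. Rows of non-coding transcripts that overlap members went both with and against them. Within the St3gal4 locus 4930581F22Rik had 5.26 uninjured and 6.16 injured (0.90), and within the Gcnt2 locus the microRNA gene Mir5124a had 5.14 uninjured and 6.53 injured (1.39), both with uninjured values below the low-signal level. Against their members, BC106179 within St6gal1 differed by 0.23 and the pseudogene Gm10284 within Galnt7 by 0.70. The row of 4933431G14Rik within St3gal5 had the sign of its member, with a difference of -0.12 at values below the low-signal level.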
